A study of Saccharomyces cerevisiae with 36 samples.

Results

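Growth on ethanol as the limiting carbon source was compared with growth on limiting glucose in a strain of the yeast Saccharomyces cerevisiae whose regulator Hap1p carries a purification tag. All gene rows of the count table for that strain in small vessels were used, in the 3 libraries of each limitation, which makes 6 of the 36 libraries of the series. The table held 7122 gene rows, of which 6612 passed the filter on low counts and were tested, and 28 have IDs that start with Q0, the mark of a reading frame on the mitochondrial genome. Of these 28, 25 passed the filter. Cultures grew in chemostats, in which a steady feed of medium sets the growth rate and a scarce nutrient limits the culture. The ethanol-limited group (Et-lim) received 0.5% (w/v) ethanol and the glucose-limited group (Glu-lim) 0.75% (w/v) glucose, so the feeds differed in the carbon source and in its percentage. The strain, HAP1-TAP, was derived from CEN.PK 113-5D by a C-terminal CBP-ProtA fusion to Hap1p, and both groups carry it. The vessels are labelled MC, which the series title lets be read as mini-chemostat. Sampling came after 48 to 60 h of constant density, dissolved oxygen and off-gas, and the design text states biological triplicates. The same 2 limitations were sampled with the same strain in a 1 L DASGIP reactor (DASGIP tagged) and with CEN.PK 113-5D itself in MC vessels (MC untagged), 3 libraries each. Each set also holds cultures limited by nitrogen (N-lim) and by oxygen and glucose (OxGlu-lim), which are not compared here. Their libraries entered the fit from which the spread of each gene was estimated. The labels give no batch or date, so a difference between those sets and the MC tagged set cannot be told apart from a batch that ran with a set.

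Ethanol enters yeast metabolism as acetyl-CoA, by way of acetaldehyde and acetate. Since it bypasses glycolysis, sugars must be built backwards from acetyl units, through the glyoxylate cycle and gluconeogenesis, and energy must come from respiration. The protein kinase Snf1 and the activators Cat8, Sip4 and Adr1 turn on the genes of ethanol and acetate use, and the Hap2/3/4/5 complex those of respiration. The respiratory chain and the ATP synthase are built from many nuclear gene products and a few encoded on the mitochondrial genome, which has its own RNA polymerase, Rpo41 with the factor Mtf1, and its own ribosomes. Hap1 itself is a haem-responsive activator of genes of respiration and sterol synthesis.

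Of the 12 genes with the largest rises on ethanol, 5 carried the letters CCNTNCNNCCG, the core of the carbon source response element bound by Cat8 and Sip4, within the 600 bases before the start codon on either strand. The same letters occurred in 1.92% of the 6005 such windows of the genome and in 1 of the 12 genes with the largest falls. They are shown for these 5 genes, whose rises are among the largest of the comparison, and for AGX1, a gene of glyoxylate metabolism that rose by less. Each sequence is read on the strand of its gene from the R64 reference, another laboratory strain than CEN.PK, with the matching letters in capitals and 25 bases on each side.
PCK1 (chrXI:630646-630706, plus strand): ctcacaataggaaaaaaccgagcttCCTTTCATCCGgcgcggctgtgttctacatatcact
PCK1 (chrXI:630565-630625, plus strand, match on the opposite strand): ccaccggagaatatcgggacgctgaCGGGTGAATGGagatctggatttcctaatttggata
ICL1 (chrV:287277-287337, minus strand): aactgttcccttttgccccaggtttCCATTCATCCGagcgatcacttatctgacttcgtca
FBP1 (chrXII:875261-875321, minus strand, match on the opposite strand): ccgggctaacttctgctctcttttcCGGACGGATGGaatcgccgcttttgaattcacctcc
YAT1 (chrI:190032-190092, plus strand): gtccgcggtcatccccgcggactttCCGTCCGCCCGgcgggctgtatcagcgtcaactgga
MDH2 (chrXV:83262-83322, minus strand): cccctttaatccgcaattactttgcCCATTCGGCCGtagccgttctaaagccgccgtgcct
AGX1 (chrVI:76576-76636, plus strand): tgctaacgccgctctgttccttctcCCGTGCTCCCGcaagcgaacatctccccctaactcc
The PCK1 matches begin 481 and 562 bases before the start codon, that of ICL1 398, that of FBP1 504, that of YAT1 136 and that of MDH2 377. A match describes letters only and shows no binding.

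Total counts ran from 17.7 to 21.5 M (mega) per library, with a median of 20.6 M, and 6760 to 6819 genes had at least 1 count in a library. Log2 expression correlated across genes at r of 0.992 to 0.995 within a group and 0.953 to 0.957 between groups. The a-factor and receptor genes of MATa cells were present, and the alpha pheromone genes, which such cells do not use, lay at 1.29 to 5.13 CPM (counts per M of the TMM-scaled library size). Since the tag is on the Hap1 protein, the HAP1 count does not test it. Ethanol limitation changed 3082 of the 6612 genes, or 46.6%, at an adjusted p under 0.05 by edgeR's quasi-likelihood test with Benjamini-Hochberg adjustment over all tested genes. Of these, 1639 (24.8%) were higher and 1443 (21.8%) lower on ethanol. A change of at least 2-fold was called for 552 genes (8.35%), 213 higher (3.22%) and 339 lower (5.13%), and the median log2 fold change of all tested genes was 0.03. In 4177 genes (63.2%) all 3 Et-lim libraries lay above, or all lay below, the 3 Glu-lim libraries. The counts of called members given below for lists of genes are to be read against these percentages.

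Genes of the route from ethanol to acetyl-CoA and on to sugar, with acetate import and the carnitine shuttle, gave 9 of the 12 largest rises. All levels are shares of a whole culture's RNA, so a change in some of the cells cannot be told apart from a change in each. ADH2, the alcohol dehydrogenase that oxidises ethanol, stood at 4736, 5195 and 4862 CPM in the Et-lim libraries and at 996, 891 and 844 CPM in the Glu-lim libraries, a log2 fold change of 2.44 ± 0.18 (SE, here and below) with an adjusted p of 3.07e-12. ACS1, an acetyl-CoA synthetase, stood at 5727, 5797 and 5424 CPM on ethanol against 901, 966 and 965 CPM, a rise of 2.58 ± 0.22 on the log2 scale. The groups did not overlap for either gene, and the other synthetase gene, ACS2, rose by 1.47 ± 0.09. ALD6, the cytosolic acetaldehyde dehydrogenase, rose from 1623, 1611 and 1527 CPM to 3261, 3160 and 2997 CPM (0.98 ± 0.24, adjusted p = 0.0015). ALD4, a mitochondrial one, was among the most abundant of these mRNAs under both limitations and did not pass, with a log2 fold change of 0.32 ± 0.17 (adjusted p = 0.128). It was called in a model of the 6 compared libraries alone. ALD5 and ALD3 fell, by 1.13 and 1.99 on the log2 scale. Of the 9 tested genes of this list, 5 were higher and 3 lower, with a median log2 fold change of 0.98.

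PCK1, phosphoenolpyruvate carboxykinase, which commits carbon to gluconeogenesis, stood at 2821, 2741 and 2585 CPM on ethanol and at 44.5, 41.8 and 43.1 CPM on glucose. That is a 63.0-fold difference (log2 5.98 ± 0.35, adjusted p = 3.34e-14). FBP1, fructose-1,6-bisphosphatase, the last step particular to gluconeogenesis, stood at 626, 677 and 642 CPM against 28.1, 26.7 and 31.5 CPM (4.50 ± 0.21, adjusted p = 2.15e-16). The spread within each group was small beside these differences, and no library of either group came near the other. The glyoxylate cycle, which spares acetyl units from being burnt, moved with them. ICL1, isocitrate lyase, its first enzyme, had 6686, 6970 and 6565 CPM on ethanol and 265, 213 and 235 CPM on glucose, a 28.3-fold difference (4.82 ± 0.17, adjusted p = 1.97e-19). MLS1, malate synthase, had 2689, 2707 and 2642 CPM against 171, 129 and 144 CPM (4.18 ± 0.16). MDH2, the cytosolic malate dehydrogenase, and CIT2, the peroxisomal citrate synthase, rose by 3.93 ± 0.19 and 3.71 ± 0.18. Of the 15 tested genes of the glyoxylate cycle and gluconeogenesis list, 11 were higher and 2 lower, with a median of 1.80. IDP2, which makes cytosolic NADPH from isocitrate, and AGX1, which turns glyoxylate into glycine, were among the 11, with 2.21 and 1.80. PYC1, a pyruvate carboxylase, rose by 0.77, while its paralog PYC2 had a log2 fold change of -0.10 and was not called. The clearest fall in the list was in VID24, the substrate receptor of the ubiquitin ligase that removes gluconeogenic enzymes when sugar returns. VID24 stood at 12.6, 9.20 and 13.2 CPM on ethanol and at 109, 103 and 89.3 CPM on glucose (-3.10 ± 0.19).

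ADY2, an acetate importer of the plasma membrane, had 2351, 2501 and 2586 CPM on ethanol against 71.0, 53.0 and 51.4 CPM (5.41 ± 0.32). The carnitine shuttle carries acetyl units into mitochondria, and its genes YAT1, CAT2 and YAT2 (carnitine acetyltransferases) and CRC1 (the carnitine carrier) rose by 3.97 ± 0.28, 2.88 ± 0.21, 3.24 ± 0.21 and 3.72 ± 0.21. Together 8 of 11 tested genes of acetate and lactate import and the carnitine shuttle were higher and none lower, with a median of 1.90. JEN1, the lactate and pyruvate importer, was not called, with 0.32 (adjusted p = 0.331). The 3 genes of the methylcitrate cycle, CIT3, PDH1 and ICL2, which handle propionyl units, were all higher, by 2.48, 2.55 and 1.62. Among the mitochondrial carriers 16 of 20 were higher and 2 lower, led by SFC1, which exchanges the succinate of the glyoxylate cycle for fumarate, from 113, 112 and 100 CPM to 801, 889 and 862 CPM (2.98 ± 0.21). ODC1, a dicarboxylate carrier, and MPC3, a subunit of the pyruvate carrier, rose by 1.66 and 1.90. In the peroxisome, 18 of 21 genes of beta-oxidation and peroxisome assembly were higher and none lower, with a median of 0.79. POX1 and FOX2, enzymes of beta-oxidation, rose by 1.06 and 1.15.

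**Figure D1:**
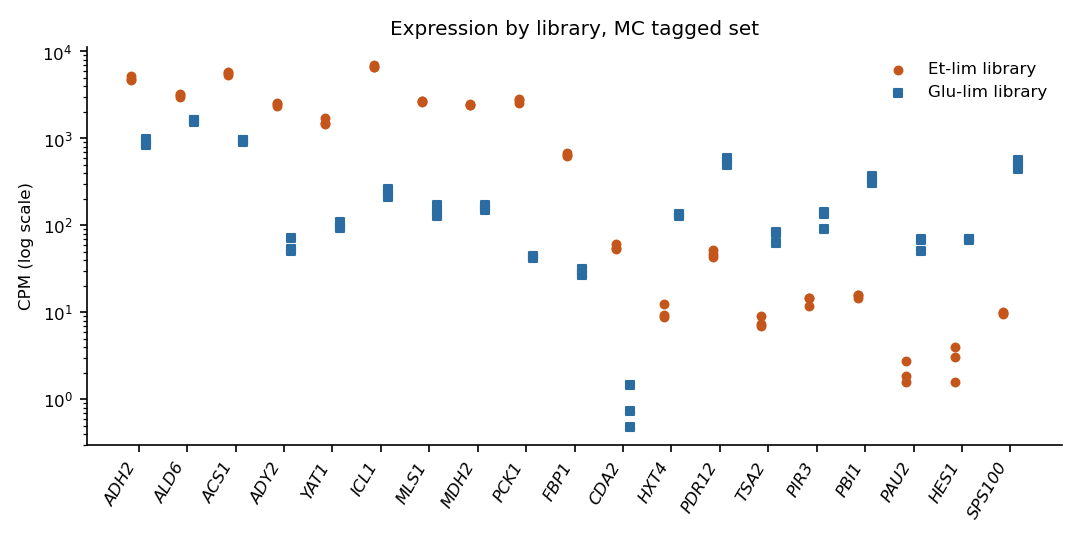
CPM (log axis) of genes of ethanol use and gluconeogenesis and of other genes with large changes, in each of the 3 Et-lim libraries (circles) and 3 Glu-lim libraries (squares) of the MC tagged set. The limitations are separated for every gene shown, and PCK1 lies between 41.8 and 44.5 CPM on glucose and between 2585 and 2821 CPM on ethanol.

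Other genes among the 12 largest rises have roles outside this route or none assigned here. CDA2, a chitin deacetylase known from the spore wall, rose furthest, from 0.481, 0.743 and 1.45 CPM to 54.6, 54.1 and 60.4 CPM (6.01 ± 0.32, adjusted p = 2.55e-15). DPA10 (YLR307C-A), whose ID is next to that of CDA2 (YLR308W), rose by 4.55 ± 0.21, from 36.4, 36 and 47.5 CPM to 928, 961 and 908 CPM. YAR035C-A rose by 4.34 ± 0.19, from between 1.69 and 3.2 CPM to between 49.6 and 54.4 CPM. Its ID is next to that of YAT1 (YAR035W) and marks the opposite strand, and whether the counting used strand is not given in the sources used here. With ADY2, ICL1, PCK1, FBP1, MLS1, YAT1, MDH2, CRC1 and CIT2 these complete the 12, and all of them passed the test in each of the 15 alternative settings.

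Of the 24 tested regulators of carbon source use 11 were higher, 3 lower and 10 not called. SIP4, an activator that binds the carbon source response element, had 490, 530 and 504 CPM on ethanol and 74.7, 82.2 and 91.0 CPM on glucose (2.62 ± 0.12). CAT8, which acts at the same element, had 268, 270 and 264 CPM against 137, 137 and 147 CPM (0.93 ± 0.18, adjusted p = 9.51e-05). ADR1, activator of ADH2 and peroxisomal genes, rose by 1.04 ± 0.13, and SIP2, a subunit of the Snf1 kinase, by 1.69 ± 0.14. The gene of the kinase itself, SNF1, rose by 0.19 ± 0.06. HAP4, the regulated subunit of the Hap2/3/4/5 complex, had 317, 309 and 306 CPM against 181, 167 and 167 CPM (0.86 ± 0.10), and HAP3 rose by 0.57. MIG1, the repressor that acts when glucose is plentiful, fell from 81.5, 76.2 and 79.1 CPM to 34.4, 33.4 and 34.5 CPM (-1.21 ± 0.13), and HXK2, the hexokinase that works with it, by 0.57 on the log2 scale. HAP1, whose product carries the tag, fell from 255.05, 287 and 312 CPM to 162, 170 and 158.4 CPM (-0.80 ± 0.11, adjusted p = 1.02e-06). It also fell in the DASGIP tagged set, by 0.46, and in the MC untagged set, by 1.12. The rise of HAP2, 0.34, lost its call in 6 of 15 settings, among them the fits without Et-lim replicate 1 or 2 or Glu-lim replicate 2 or 3 (adjusted p of 0.0547 to 0.144 in those 6).

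In the citric acid cycle 15 of 16 tested genes were higher and 1 lower, with a median log2 fold change of 1.53. SDH1, the flavoprotein of succinate dehydrogenase, had 1420, 1496 and 1394 CPM on ethanol and 404, 351 and 339 CPM on glucose (1.98 ± 0.12), and CIT1, the mitochondrial citrate synthase, had 1791, 1842 and 1708 CPM against 501, 463 and 454 CPM (1.91 ± 0.12). FUM1, fumarase, and KGD1, of the ketoglutarate dehydrogenase, rose by 1.91 and 1.75. In the nuclear respiratory chain 21 of 23 were higher and 2 lower, with a median of 1.07. NDI1, the internal NADH dehydrogenase that stands in for complex I in yeast, rose by 1.31 ± 0.13, COX12, a cytochrome oxidase subunit, by 1.31 ± 0.08, and RIP1, the Rieske protein of the bc1 complex, by 1.05.

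The 2 genes of the respiratory chain list that fell are isoforms used when oxygen is low. COX5A, the aerobic form of a cytochrome oxidase subunit, rose from 179, 161 and 153 CPM to 379, 351 and 359 CPM (1.14 ± 0.09). Its hypoxic paralog COX5B fell from 5.98, 9.81 and 7.85 CPM to 3.72, 3.49 and 4.05 CPM (-1.07 ± 0.23). Cytochrome c showed the same split. CYC1, the aerobic form, rose from 151, 130 and 136 CPM to 338, 354 and 319 CPM (1.27 ± 0.14), and CYC7 fell from 6.51, 9.76 and 5.31 CPM to 2.38, 1.92 and 2.82 CPM (-1.61 ± 0.42). Groups did not overlap for any of the 4, and the low isoforms were far below the high ones under both limitations. ATP synthase had 20 of 22 tested nuclear genes higher and none lower, with a median of 0.86. ATP2, the beta subunit, had 2613, 2731 and 2544 CPM against 1340, 1161 and 1085 CPM (1.14 ± 0.10). Assembly factors of the chain had 15 of 28 higher, 1 lower and 12 not called, with a median of 0.26. The letters CCAATNA, the box of the Hap2/3/4/5 complex, lay within 600 bases before the start codon, on either strand, in 18 of the 23 respiratory chain genes (78.3%) and 17 of the 22 ATP synthase genes (77.3%), against 29.0% of all windows and 3 of the 12 largest rises. The carbon source response element was found in none of the 23 or the 22.

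Of the 8 protein genes of the mitochondrial genome, none was higher and 1, VAR1, was lower, with a median log2 fold change of 0.07, against 1.07 and 0.86 in the nuclear respiratory chain and ATP synthase lists. VAR1 is a ribosomal protein, and the nuclear chain list holds NADH dehydrogenases that have no mitochondrially encoded partner. COX1, the catalytic subunit of cytochrome oxidase, had 77877, 70182 and 92287 CPM on ethanol and 84096, 59279 and 67154 CPM on glucose (0.19 ± 0.20, adjusted p = 0.456). COX2 had 5210, 4848 and 6043 CPM against 5829, 4378 and 4904 CPM (0.09 ± 0.16, adjusted p = 0.672), and COX3 had 5232, 4503 and 5747 CPM against 6025, 4833 and 5264 CPM (-0.06 ± 0.18, adjusted p = 0.81). The groups overlapped for each, and the sign of COX2 and COX3 turned when some of the libraries were left out. COB, cytochrome b, had 8831, 7649 and 9704 CPM against 10669, 6945 and 7699 CPM (0.05 ± 0.21, adjusted p = 0.86), with -0.01 under upper-quartile scaling. Of the ATP synthase subunits made in mitochondria, ATP6 had 5043, 4596 and 5789 CPM against 5140, 3851 and 3714 CPM (0.28 ± 0.22, adjusted p = 0.311) and OLI1 6740, 6025 and 8075 CPM against 7284, 5748 and 5939 CPM (0.14 ± 0.20, adjusted p = 0.6). A p that misses the threshold does not show that these levels were equal. ATP8 lay near 1 CPM in all 6 libraries, between 0.757 and 1.44 CPM (-0.36 ± 0.50, adjusted p = 0.585).

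The libraries of a group differed together in these genes. Among the Et-lim libraries replicate 2 was the lowest and replicate 3 the highest in 8 of 8 mitochondrial protein genes. Among the Glu-lim libraries replicate 1 was the highest in 7 of 8 and replicate 2 the lowest in 7 of 8. Over all tested genes these shares were 31.8% lowest for Et-lim replicate 2, 30.2% highest for Et-lim replicate 3, 36.5% highest for Glu-lim replicate 1 and 28.5% lowest for Glu-lim replicate 2. Leaving out each library in turn moved the median of the 8 between -0.04 and 0.23. The rows with Q0 IDs, which leave out ribosomal RNA, RPM1 and transfer RNA, together took 34.7 ± 2.82% (SD, n = 3) of counted reads under Et-lim. Under Glu-lim they took 33.5 ± 4.32% (exact permutation test, two-sided, p = 0.8, where 0.1 is the smallest p that 3 against 3 allows).

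Within the mitochondrial genome, levels per length differed more between genes than between limitations. Per kilobase of the annotated gene, OLI1 had 30072 CPM on ethanol and 27375 on glucose, far above COX2 (7099 and 6663), COX3 (6371 and 6634), ATP6 (6593 and 5429) and COX1 (6218 and 5447). The annotated length of OLI1 is only 231 bases, against 756 for COX2 and 810 for COX3. How reads that partly overlap a row were counted is not given, so the value per kilobase of so short a row is uncertain. COB had 1228 and 1187 CPM per kilobase, and VAR1, whose reference sequence is 10.4% G and C, only 16.6 and 37.2. COX1 and COB contain introns with reading frames of their own, and 9 such rows lie inside them. Their annotated lengths include these introns, so their values per kilobase are not directly comparable with those of genes without introns. In all 36 libraries each nested row had no more counts than the row that holds it, as would follow from counting a read again in each enclosing row. These 9 rows held 21.5% to 27.8% of the counts of a compared library. With nested reads counted once, the share of the rows with Q0 IDs was 12.6 ± 1.32% under Et-lim and 12.3 ± 2.005% under Glu-lim. Subtracting neighbours gave segments along COX1, whose level per kilobase ran, from the 5′ end, through 12254, 10893, 998, 5459, 2029 and 2222 CPM on ethanol and through 10777, 9107, 996, 4363, 1898 and 2371 CPM on glucose. The profile had the same steep drop after the second segment under both limitations. The segment bounds come from the R64 reference, another laboratory strain than CEN.PK, and whether the introns of the 2 match was not tested. Along COB the segments had 1899, 297, 1089 and 1568 CPM per kilobase on ethanol and 1938, 252, 998 and 1486 on glucose.

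In all, 6 of the 25 tested rows with Q0 IDs were lower on ethanol and none higher, with a median of -0.00. A share of 6 in 25 is close to the 21.8% of all tested genes that were lower, so the count says nothing particular of these rows. VAR1, the protein of the small mitochondrial ribosomal subunit that is made in the organelle, had 18.5, 17.5 and 23.5 CPM on ethanol and 43.5, 32.2 and 58.0 CPM on glucose (-1.16 ± 0.30, adjusted p = 0.00241). SCEI, the endonuclease encoded in the intron of the large ribosomal RNA gene, had 192, 186 and 250 CPM against 478, 319 and 438 CPM (-0.97 ± 0.21, adjusted p = 0.0004). The groups did not overlap in either. The row it lies in, the large ribosomal RNA 21S_RRNA, had 1293, 1195 and 1738 CPM against 2535, 2123 and 4414 CPM (-1.10 ± 0.28, adjusted p = 0.00195), and both rows may share reads. The small ribosomal RNA 15S_RRNA had 825, 764 and 1296 CPM against 1199, 1011 and 2579 CPM, with overlap, and was not called (-0.73 ± 0.34, adjusted p = 0.0747). It passed without Et-lim replicate 3, without Glu-lim replicate 2, and in a model of the 6 libraries alone (adjusted p of 0.0354, 0.03 and 0.0365). Without Glu-lim replicate 3, its highest library, 15S_RRNA had a log2 fold change of -0.20 (adjusted p = 0.661), and 21S_RRNA one of -0.73, still called. Ribosomal RNA was removed before sequencing, so these values count what that removal left. Q0182, with no assigned role here, had 2.67, 3.09 and 2.64 CPM against 8.86, 5.15 and 10.2 CPM (-1.52). The other 3 called rows, Q0010, Q0017 and Q0142, had log2 fold changes of -1.78, -1.42 and -1.42 at low levels, at most 2.42 CPM in any of the 6 libraries, and the groups overlapped for Q0142. Q0017 lost its call with DESeq2, without Et-lim replicate 3 or without Glu-lim replicate 2, and Q0142 without Et-lim replicate 1 or Glu-lim replicate 1 or 3 (adjusted p of 0.0632 to 0.167 and of 0.0913 to 0.112). RPM1, the RNA of mitochondrial RNase P, had 0.28.

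Mitochondrial transcription starts at the nonanucleotide ATATAAGTA. It was found 11 times on the forward strand of the 85779-base reference genome and 3 times on the reverse strand. Those next to the ribosomal RNA genes, which lie among the rows that fell or came near to it, and those nearest before COX1 and OLI1, which were not called, are shown with the 9 letters in capitals, all on the plus strand.
21S_RRNA, ending at the annotated start (chrMT:57990-58018): attattatatATATAAGTAgtaaaaagta
15S_RRNA, ending 75 bases before (chrMT:6452-6480): atttattattATATAAGTAataaataata
COX1, ending 460 bases before (chrMT:13339-13367): ataagtattgATATAAGTAatagatataa
OLI1, ending 565 bases before (chrMT:46139-46167): atacacatttATATAAGTAtatatatata
OLI1, a second match ending 643 bases before (chrMT:46061-46089): attaatattaATATAAGTAatatatatag
These matches describe letters only, and their bearing on the levels of the genes after them was not tested.

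Nuclear genes for the mitochondrial expression apparatus were mixed. RPO41, the polymerase, had 0.07 (adjusted p = 0.374) and MTF1, its initiation factor, -0.05 (adjusted p = 0.722). Of 31 tested genes in this list 13 were higher and 3 lower, with a median of 0.13. PET111 and PET494, activators of the translation of COX2 and COX3, rose by 0.55 and 0.67, RPM2, the protein of mitochondrial RNase P, rose by 0.78, and NCA3 fell by 1.18. Mitochondrial ribosomal proteins had 49 of 67 higher and none lower, with a median of 0.36, and their leaders MRPL25 and MRP35 rose by 0.65 and 0.63. In the maintenance of mitochondrial DNA 2 of 11 were higher and 1 lower. That 1, HMI1, a mitochondrial DNA helicase, fell by 0.35 and lost its call without Et-lim replicate 2 or Glu-lim replicate 2 (adjusted p of 0.0636 to 0.0759).

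The ratio of mitochondrial to nuclear respiratory mRNA puts these results on a common scale. Reads of COX1, COX2, COX3, COB, ATP6 and OLI1, summed, were divided by those of 31 nuclear genes for subunits of the respiratory complexes and ATP synthase, a measure built after the values were seen and given as a description. It was 8.02, 7.17 and 9.75 under Et-lim and 17.4, 13.4 and 15.5 under Glu-lim, or 8.31 ± 1.31 against 15.4 ± 1.97 (SD, n = 3), with no overlap. In the DASGIP tagged set it was 8.12 ± 0.377 under Et-lim and 8.69 ± 1.39 under Glu-lim, and in the MC untagged set 14.3 ± 3.34 and 12.5 ± 0.603, with overlap in both. With the 4 genes that have no introns alone, the ratio in the MC tagged set was 1.69 ± 0.251 against 3.25 ± 0.286.

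**Figure D2:**
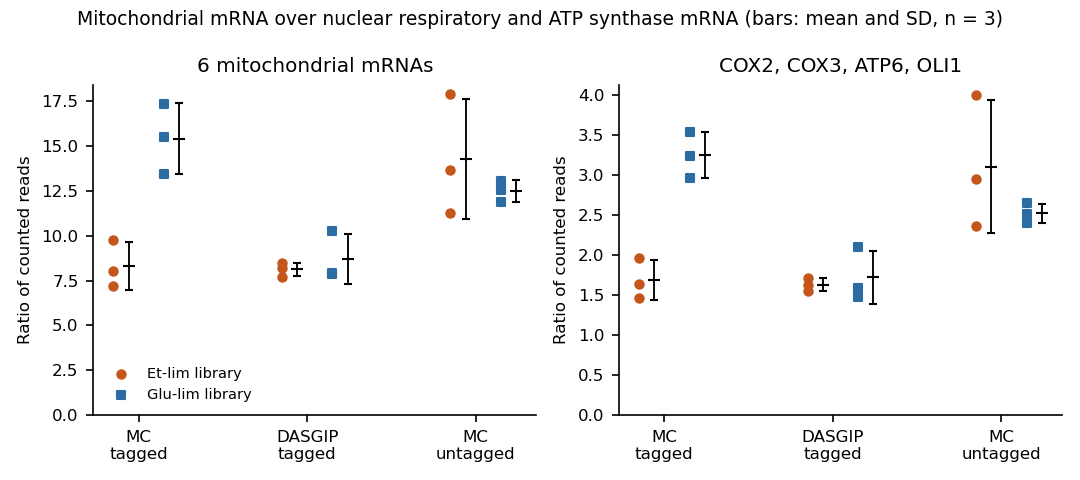
Ratio of counted reads of mitochondrial mRNAs to those of 31 nuclear respiratory chain and ATP synthase mRNAs in each library (circles Et-lim, squares Glu-lim), for 6 mitochondrial genes (left) and for the 4 without introns (right), with mean and SD of 3 libraries. The limitations are apart in the MC tagged set, at 8.31 and 15.4 on the left, and overlap in the DASGIP tagged and MC untagged sets.

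The same contrast was available in the other sets. Ethanol limitation called 2137 genes in the DASGIP tagged set (32.3%, with 1119 genes higher and 1018 lower) and 2497 in the MC untagged set (37.8%, with 1258 genes higher and 1239 lower). Of the 1577 genes called in both tagged sets 1567 moved in the same direction, and of the 1505 called in both MC sets 1434 did. Among the 8 mitochondrial protein genes 6 were higher and none lower in each of them, with medians of 0.62 and 0.77. The respiratory chain list had medians of 0.65 and 0.54 there, the ATP synthase list 0.47 and 0.51, and the citric acid cycle list 1.05 and 0.95. In the MC tagged set these medians were 0.07 for the mitochondrial list against 1.07, 0.86 and 1.53 for the nuclear ones. Whether a gene's response differed was tested in the same model as a difference of fold changes between sets, which share no library.

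**Figure D3:**
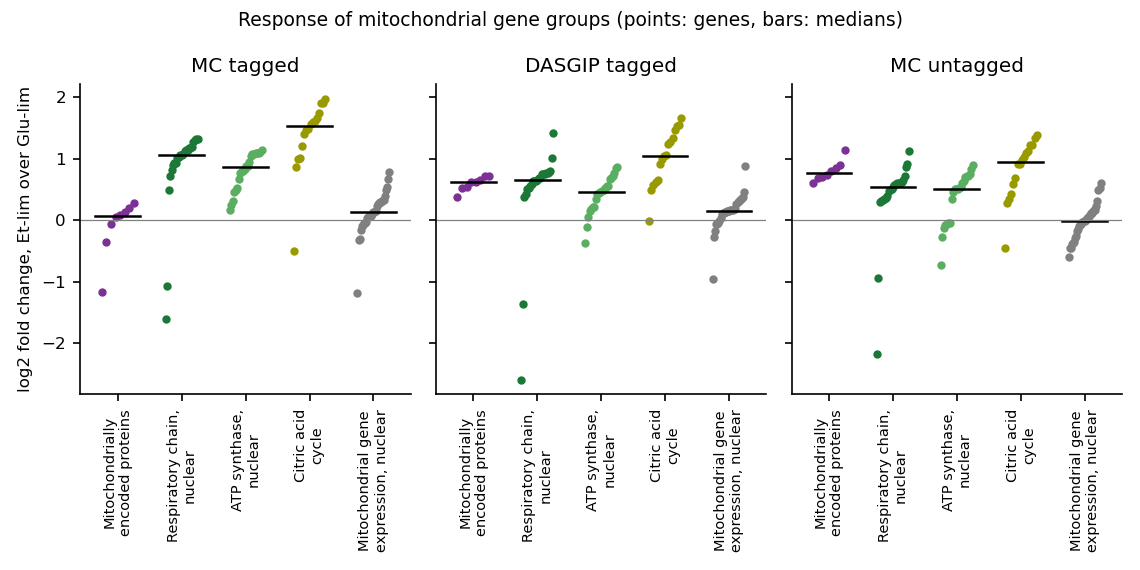
Log2 fold change of ethanol over glucose limitation for each gene (points) of 5 groups of mitochondrial genes in the 3 sets, with bars at the medians. The mitochondrially encoded proteins have medians of 0.07 (MC tagged), 0.62 (DASGIP tagged) and 0.77 (MC untagged), and the nuclear respiratory chain 1.07, 0.65 and 0.54.

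Against the DASGIP tagged set 177 genes (2.68%) differed, 86 with a higher response in the MC tagged set (1.3%) and 91 with a lower one (1.38%), and against the MC untagged set 1033 (15.6%), 635 higher (9.6%) and 398 lower (6.02%). Under upper-quartile scaling the split against the MC untagged set turned to 349 higher and 613 lower, and that against the DASGIP tagged set was 67 and 111, so the balance of directions depends on the scaling. Of the 8 mitochondrial protein genes 1 differed from the DASGIP tagged and 3 from the MC untagged response. VAR1, lower here, had a log2 fold change of 0.60 in the MC untagged set (adjusted p = 0.122), a difference of -1.77 ± 0.43 (adjusted p = 0.00753) that held in each of 14 settings. Its difference from the DASGIP tagged response, -1.54 ± 0.42 (adjusted p = 0.0424), lost its call without any of the libraries but Glu-lim replicate 2 (adjusted p of 0.0647 to 0.116). COX2 and COX3 differed from the MC untagged response by -0.71 ± 0.23 and -0.79 ± 0.26 (adjusted p = 0.0367 and 0.0364), and both calls were lost without Et-lim replicate 1 or 2 or Glu-lim replicate 1 or 3 (adjusted p of 0.0518 to 0.108 and of 0.0531 to 0.0964). The 21S_RRNA response was lower than in the DASGIP tagged set by 1.88 ± 0.40, where it held in each setting, and than in the MC untagged set by 1.41 ± 0.39, where it was lost without Et-lim replicate 2 or Glu-lim replicate 3 (adjusted p of 0.0511 to 0.0706). In the citric acid cycle, respiratory chain and ATP synthase lists the called differences were all upward. From the MC untagged response 11 of 16 citric acid cycle genes, 13 of 23 respiratory chain genes and 10 of 22 ATP synthase genes differed, and from the DASGIP tagged response 4, 7 and 3. The respiratory chain members named above include COX12, whose response exceeded that in the DASGIP tagged set by 0.62 (adjusted p = 0.0025).

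Among all genes, MUP1, the high-affinity methionine permease, stood out against both sets. It had 109, 94.6 and 106 CPM on ethanol and 331, 237 and 250 CPM on glucose (-1.40 ± 0.27), but log2 fold changes of 0.84 in the DASGIP tagged set and 1.196 in the MC untagged set, differences of -2.24 ± 0.38 and -2.61 ± 0.38 (adjusted p = 0.00159 and 0.000186). BAP2, a permease of branched-chain amino acids, fell from 253, 270 and 269 CPM to 47.7, 43.8 and 43.2 CPM (-2.56 ± 0.13), by 1.47 ± 0.17 more than in the DASGIP tagged set. STL1, a glycerol importer, rose from 78.1, 138 and 116 CPM to 1322, 1316 and 1500 CPM (3.64 ± 0.26), by 1.86 ± 0.34 more than in the MC untagged set. CWP1, a cell wall mannoprotein, rose from 25.9, 28.6 and 28.8 CPM to 172, 186 and 181 CPM (2.69 ± 0.21), by 1.44 ± 0.30 and 1.32 ± 0.29 more than in the other sets. PDE2, the high-affinity phosphodiesterase of cyclic AMP, and AQR1, an exporter, fell by 1.44 ± 0.24 and 3.14 ± 0.27 and differed from the MC untagged response by -1.82 ± 0.34 and -1.94 ± 0.38. Among the members of the ethanol route PCK1, FBP1, MLS1 and MDH2 were called in neither test of a difference. In the glyoxylate cycle and gluconeogenesis list, however, 8 of 15 genes differed from the MC untagged response, against 15.6% of all tested genes. The ethanol to acetyl-CoA list had 4 of 9, and the list of acetate and lactate import and carnitine shuttle 4 of 11. From the DASGIP tagged response 0, 0 and 1 of these genes differed. ICL1 and YAT1 rose by 0.84 ± 0.20 and 1.03 ± 0.35 more than in the MC untagged set, and ADY2 by 1.70 ± 0.38 more than in the DASGIP tagged set. The call for YAT1 was lost without any of the 6 libraries and under upper-quartile factors (adjusted p of 0.0617 to 0.0886 over these 7 settings).

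**Figure D4:**
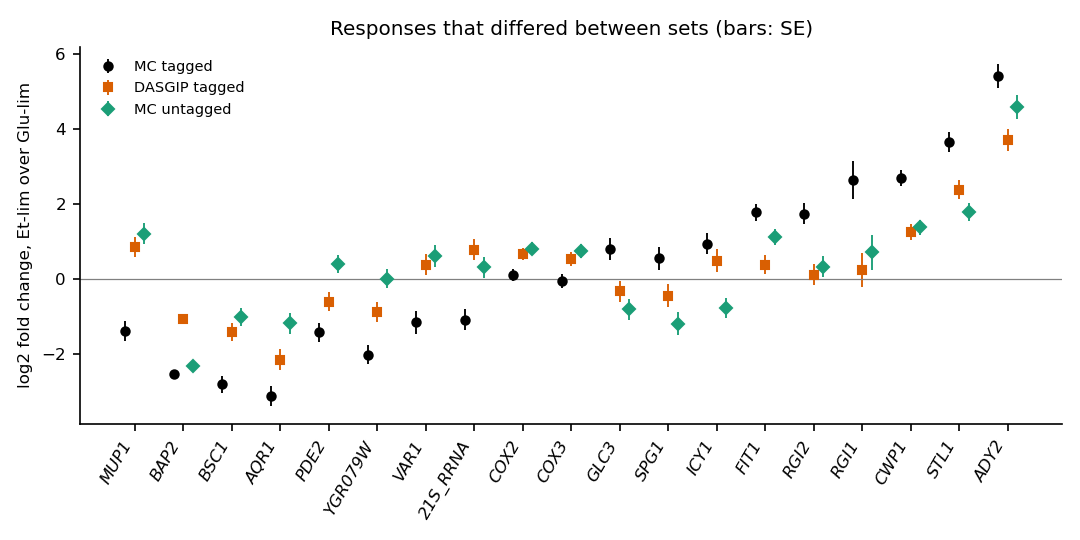
Log2 fold change of ethanol over glucose limitation with its SE for genes whose response differed between sets by the model's test, in the MC tagged (black circles), DASGIP tagged (orange squares) and MC untagged (green diamonds) sets. MUP1 is at -1.40 in the MC tagged set and at 0.84 and 1.196 in the others, and STL1 at 3.64 against 2.37 and 1.78.

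SPS100, a protein of the spore wall, fell furthest of the named genes, from 450, 564 and 503 CPM to 9.94, 10.2 and 9.69 CPM (-5.66 ± 0.20, adjusted p = 3.56e-19), and overlaps the transcript SUT169, from which its reads cannot be told apart. PAU2, of the seripauperin family whose members are near-identical, fell from 50.9, 69.1 and 67.8 CPM to 1.86, 2.74 and 1.59 CPM (-4.91 ± 0.30). HES1, an oxysterol-binding protein, fell from 67.3, 70.3 and 69.9 CPM to 3.95, 3.09 and 1.59 CPM (-4.58 ± 0.33). No library of either group overlapped the other in these genes. PDR12, the exporter of weak organic acids, fell from 595, 544 and 492 CPM to 43.0, 46.5 and 51.7 CPM (-3.53 ± 0.24). TSA2, a peroxiredoxin, fell from 62.7, 81.9 and 84.2 CPM to 9.01, 7.39 and 6.99 CPM (-3.29 ± 0.21), and PIR3, a cell wall protein, by 3.16 ± 0.36. HXT4, a hexose transporter, fell by 3.68 ± 0.27. The remaining members of the 12 largest falls were PBI1 (-4.44 ± 0.19), YDL218W (-4.21 ± 0.29), YPR145C-A (-3.90 ± 0.28), ANS1 (-3.64 ± 0.31) and YMR244W (-3.38 ± 0.35). Glu-lim replicate 1 was the lowest of its group in 10 of these 12, against 39.4% of all tested genes, but the groups stayed apart and no call was lost in the 15 settings. The 5 letters AGGGG, the core of the stress response element, lay in the windows of 9 of these 12 genes (75%) and of 7 of the 12 largest rises (58.3%), against 39.7% of all windows.

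In glycolysis 13 of 18 tested genes were lower and none higher, with a median of -0.88. TDH1, a glyceraldehyde-3-phosphate dehydrogenase, fell from 681, 953 and 945 CPM to 110, 93.7 and 86.9 CPM (-3.15 ± 0.28), and its more abundant paralog TDH3 from 4515, 5065 and 5235 CPM to 2532, 2279 and 2119 CPM (-1.10 ± 0.18). Reads of the TDH genes may be split among near-identical copies. GPM1 and ENO1, the mutase and an enolase below it, fell by 1.58 and 1.55. PFK1, a subunit of phosphofructokinase, had 512, 494 and 470 CPM against 489, 495 and 523 CPM and was not called (-0.03 ± 0.07). Of 10 fermentation genes 6 were lower, among them PDC1, pyruvate decarboxylase (-1.05), and ADH1, the dehydrogenase that makes ethanol (-1.34), and 2 were higher, among them ADH3, a mitochondrial one (0.97). Hexose transport and sensing had 8 of 19 lower and 2 higher. HXT2, HXT3 and HXT7 fell by 1.99, 2.15 and 2.01, with HXT7 sharing near-identical sequence with HXT6. HXT5 was higher, by 0.62, a call lost without any of the 6 libraries, under upper-quartile factors and in a model of the 12 MC tagged libraries alone (adjusted p of 0.0606 to 0.140 over these 8 settings).

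**Figure D5:**
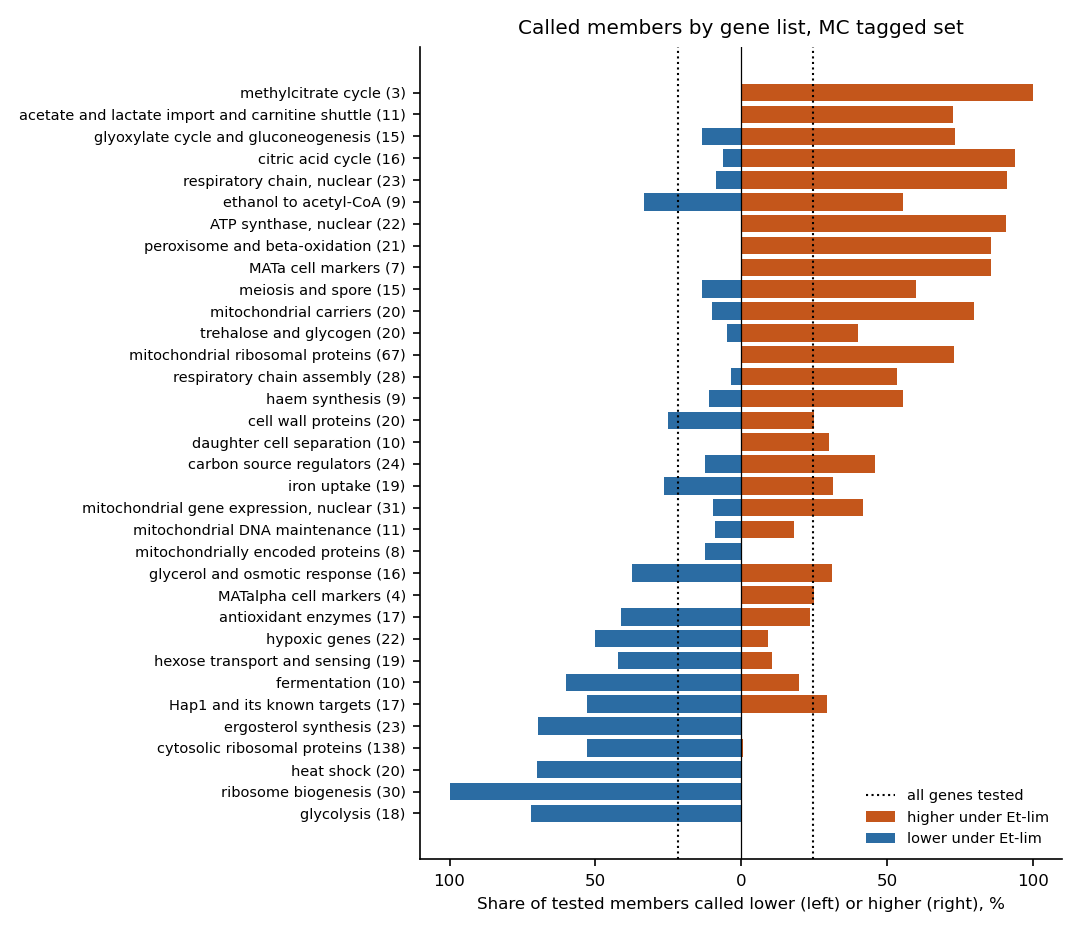
Share of the tested members (number in brackets) of each gene list called lower (left, blue) or higher (right, orange) on ethanol in the MC tagged set, with dotted lines at the shares of all tested genes, 21.8% lower and 24.8% higher. All 30 ribosome biogenesis genes lie to the left, and 15 of 16 citric acid cycle and 20 of 22 ATP synthase genes to the right.

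All 30 tested ribosome biogenesis genes were lower, with a median of -0.83, against medians of -0.38 (DASGIP tagged) and -0.28 (MC untagged). Gene by gene, 3 of the 30 differed from the MC untagged response, against 15.6% of all tested genes, and 0 from the DASGIP tagged response. NSR1, a nucleolar protein of rRNA processing, fell from 281, 237 and 218 CPM to 101, 83.8 and 85.2 CPM (-1.45 ± 0.31), and DBP2, an RNA helicase, by 1.85 ± 0.27. Cytosolic ribosomal proteins had 73 of 138 lower, 1 higher and 64 not called, with a median of -0.36. Glu-lim replicate 1 was the highest of its group in 25 of the 30 biogenesis genes, against 36.5% of all genes, and the lowest in 16 of 18 glycolysis and 18 of 20 heat shock genes. Et-lim replicate 1 was also the highest of its group in 25 of the 30 biogenesis genes, against 37.5% of all genes. In glycolysis and heat shock Et-lim replicate 1 went the other way from Glu-lim replicate 1, as the highest in 14 of 18 and 12 of 20 genes. With each of the 6 libraries left out in turn, 2601 to 2745 genes were called.

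Of 23 tested genes of ergosterol synthesis, a known target of Hap1, 16 were lower and none higher, with a median of -0.36. ERG11, the lanosterol demethylase, which is a haem protein, fell from 2631, 2679 and 2679 CPM to 670, 654 and 659 CPM (-2.01 ± 0.12), and ERG25 and ERG1, oxygen-using enzymes after and before it, by 1.88 ± 0.12 and 1.71 ± 0.11. The 3 libraries of a group were very close for ERG11. HMG2, an isoform of the reductase earlier in the pathway, had 0.07 ± 0.10 and was not called. Hap1 and its known targets, a list that also holds sterol and respiratory genes, had 9 of 17 lower and 5 higher, with a median of -0.34. Its respiratory member CYC1 rose while ERG11 fell. Among hypoxic genes 11 of 22 were lower and 2 higher. TIR4 and PAU24, cell wall proteins of anaerobic cells, fell by 2.76 ± 0.28 and 3.62 ± 0.34, and ANB1 by 2.76 at levels of about 1 CPM or less in all 6 libraries. TIR1 fell by 1.07 and lost its call without Et-lim replicate 1 or Glu-lim replicate 3 (adjusted p of 0.0567 to 0.0925), and ROX1, the repressor of hypoxic genes, fell by 0.52 and lost it without Et-lim replicate 2 or 3 (adjusted p of 0.051 to 0.0756). HEM13, an oxygen-using enzyme of haem synthesis, was not called (0.10, adjusted p = 0.467), while 5 of 9 haem genes were higher and 1 lower.

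In heat shock 14 of 20 tested genes were lower and none higher, with a median of -0.53. HSP26, a small chaperone, fell from 3512, 4861 and 4776 CPM to 1024, 932 and 914 CPM (-2.20 ± 0.39), and HSP30, a plasma membrane heat shock protein, from 310, 349 and 316 CPM to 61.3, 48.9 and 57.1 CPM (-2.54 ± 0.30). SSA1, an abundant Hsp70, had 1522, 1495 and 1449 CPM against 1271, 1474 and 1537 CPM and was not called (0.06 ± 0.17). HSP12 fell by 0.98 and lost its call without any library but Glu-lim replicate 1 (adjusted p of 0.0591 to 0.0758). Antioxidant enzymes were split, with 7 of 17 lower, 4 higher and 6 not called. The catalases went opposite ways, with the peroxisomal CTA1 up from 162, 168 and 161 CPM to 679, 734 and 703 CPM (2.11 ± 0.24) and the cytosolic CTT1 down from 145, 225 and 232 CPM to 63.3, 56.9 and 61.4 CPM (-1.73 ± 0.37). AHP1, a peroxiredoxin, fell by 2.47 ± 0.20. In the glycerol and osmotic list 5 of 16 were higher, 6 lower and 5 not called, with GRE1 and SIP18, stress hydrophilins, falling by 2.92 and 2.61 and GPP2, a glycerol phosphatase, by 1.63.

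Storage carbohydrate genes, with 8 of 20 higher and 1 lower, had medians of 0.49 (MC tagged), -0.13 (DASGIP tagged) and -0.47 (MC untagged), and 12 of the 20 differed from the MC untagged and 2 from the DASGIP tagged response. GLC3, the glycogen branching enzyme, had 205, 234 and 228 CPM on ethanol and 112, 139 and 134 CPM on glucose (0.79 ± 0.28, adjusted p = 0.023). That call was lost without Et-lim replicate 2 or 3 or Glu-lim replicate 1, and in a model of the 12 MC tagged libraries alone (adjusted p of 0.0536 to 0.0845 over these 4 settings). TSL1 and ATH1, of trehalose synthesis and breakdown, rose by 0.77 and 0.63. Among genes of cell type and development, 6 of 7 MATa markers were higher and none lower, with a median of 0.71. MFA2, an a-factor gene, rose from 25.6, 27.0 and 23 CPM to 76.4, 68.0 and 64.3 CPM (1.46 ± 0.15), and BAR1, the protease that degrades alpha-factor, by 0.99 ± 0.14. Of 15 meiosis and spore genes 9 were higher and 2 lower, with IME2, a meiotic kinase, up from 5.77, 8.77 and 8.03 CPM to 19.8, 19 and 21.3 CPM (1.41 ± 0.18). The largest change in this list was the fall of SPS100 given above (-5.66), and its highest log2 fold change was 1.74. Iron uptake had 6 of 19 higher and 5 lower, with FIT1 up by 1.77 ± 0.23 and FIT3 down by 1.48, and cell wall proteins 5 of 20 in each direction. Daughter cell separation had 3 of 10 higher and none lower, of which DSE1 (0.35) lost its call in 6 settings, among them those without Et-lim replicate 2 or 3 or Glu-lim replicate 2 or 3 (adjusted p of 0.0800 to 0.143). Of 4 tested MATalpha markers 1, the a-factor receptor gene STE3, was higher, by 0.55.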

How the data were processed

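RNA from 36 chemostat cultures (12 groups of 3) was extracted with RNeasy columns and made into stranded total RNA libraries after removal of ribosomal RNA, per the labels' protocols. Bowtie2, SAMtools, bedtools and genome build R64 are named, without versions, per the submitters' processing notes. Per the file headers, the authors deposited read counts, whole numbers for each gene. How overlapping features were counted, and whether strand was used, is not given in the sources used here, so overlapping, antisense and near-identical genes are uncertain. Another 60 deposited columns (the authors' CPM, mean and std) were not used, and 4 lines were not analysed here. In the MC untagged table the values of 12 neighbouring small RNA rows (SNR70 to SNR79, SNR7-L, SNR7-S) lie 2 places from those of the MC tagged table under Et-lim, Glu-lim and OxGlu-lim: moved back, their root mean square log2 difference was 0.361 under Et-lim and 0.521 under Glu-lim, against 4.93 and 4.55 as deposited. They were tested as deposited, and without them 1028 genes differed from the MC untagged response. RefSeq locus tags of R64 matched 6048 of 7122 rows, and 186 rows had 0 counts in the 6 compared libraries. Sequences come from the R64 reference.

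Counts were tested with edgeR 4.0.16 (R 4.3.3): TMM scaling, the default filter on low counts (6612 genes left), and a quasi-likelihood fit of 12 group means over all 36 libraries (24 residual degrees of freedom). The 12 groups are 4 limitations in 3 sets, so the N-lim and OxGlu-lim libraries also bear on each SE and p. Contrasts took Et-lim minus Glu-lim within a set, and the difference of 2 such contrasts between sets, adjusted by Benjamini-Hochberg, and an adjusted p under 0.05 was called. Fold changes are log2 with their SE, and CPM values use TMM-scaled library sizes. On simulated counts for 6565 genes of the MC tagged contrast, the test found 94% of 100 genes changed by 1 on the log2 scale and 100% of 100 changed by 2, with 14 calls among unchanged genes. The simulation changed only 200 genes, gave all other genes the same mean in every group and drew libraries independently. In the real contrast 46.6% of genes were called, so these rates need not hold there. Genes named are the 12 largest rises and 12 largest falls among called genes with a mean of at least 10 CPM, the 5 largest differences in each direction between sets, the Q0 rows, the core members and leading called members of each list, and further well-known members of the lists. The members and the 35 lists were chosen with earlier results of these data known. Alternatives were DESeq2 1.42.0, upper-quartile factors, scaling by nuclear reading frames, a filter of 5 CPM, no filter, fewer libraries in the fit, a replicate block, each of the 6 libraries left out in turn and, added after the data were seen, the 9 nested mitochondrial rows left out. Over all tested genes, same-numbered libraries deviated from their group means with correlations of 0.05, -0.03 and 0.06, so the numbers were not taken as pairs.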

Additional observations from a re-analysis of the deposited data

Results flagged for a closer look

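The response to ethanol limitation differed between the MC tagged set and another set for the genes below, by the interaction term of the edgeR model with Benjamini-Hochberg adjustment over all 6612 tested genes. All differences are MC tagged minus the other set, in log2 units. What sets the sets apart besides reactor or tag cannot be told apart from it.

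Against the DASGIP tagged set 177 genes differed. The responses of ADY2 (1.70 ± 0.38), CWP1 (1.44 ± 0.30), FIT1 (1.40 ± 0.34), STL1 (1.27 ± 0.34), RGI2 (1.63 ± 0.39) and RGI1 (2.40 ± 0.68) were higher in the MC tagged set. RGI1 and RGI2 are known as genes induced in respiratory growth. The responses of MUP1 (-2.24 ± 0.38), 21S_RRNA (-1.88 ± 0.40), VAR1 (-1.54 ± 0.42), BAP2 (-1.47 ± 0.17) and BSC1 (-1.40 ± 0.35) were lower. Of these 11, the calls for 21S_RRNA, ADY2, BAP2, CWP1 and MUP1 held in all 14 settings run, and 6 were lost in at least 1 of them. RGI1 was lost without any of the 6 libraries (adjusted p up to 0.12), STL1 without any but 1 (up to 0.12), BSC1 without 4 of them (up to 0.0823), FIT1 without 2 (up to 0.0698) and RGI2 without 1 (0.0696).

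Against the MC untagged set 1033 genes differed. In the ethanol route, ICL1 (0.84 ± 0.20) and YAT1 (1.03 ± 0.35) responded more in the MC tagged set. So did YAR035C-A (1.45 ± 0.26), which has no assigned role here and an ID next to that of YAT1. Among mitochondrial rows the responses of VAR1 (-1.77 ± 0.43), Q0182 (-2.04 ± 0.44), Q0010 (-1.88 ± 0.65), 21S_RRNA (-1.41 ± 0.39), SCEI (-1.03 ± 0.30), Q0297 (-0.99 ± 0.34), Q0255 (-0.94 ± 0.26), COX3 (-0.79 ± 0.26), AI5_BETA (-0.78 ± 0.22) and COX2 (-0.71 ± 0.23) were lower, and none of the mitochondrial rows named here was higher. AI5_BETA lies inside COX1 and SCEI inside 21S_RRNA, while Q0255 overlaps only the end of COX2, so these rows are not all independent. Q0297 had mean levels of 314 CPM on ethanol and 256 CPM on glucose in the MC tagged set, close to the 323 and 266 CPM of RPM1. Whether Q0297 and RPM1 share reads was not tested. Of other genes, MUP1 (-2.61 ± 0.38), YGR079W (-2.04 ± 0.36), AQR1 (-1.94 ± 0.38), YKL068W-A (-1.87 ± 0.33), PDE2 (-1.82 ± 0.34) and BSC1 (-1.80 ± 0.34) were lower. Higher were YER067C-A (1.99 ± 0.69), STL1 (1.86 ± 0.34), SPG1 (1.75 ± 0.43), ICY1 (1.73 ± 0.40), GLC3 (1.61 ± 0.40), RGI2 (1.42 ± 0.39) and CWP1 (1.32 ± 0.29). YER067C-A has an ID next to that of RGI1 (YER067W) on the opposite strand and nearly the same fold changes, so their reads may be shared. Of these 26 genes 17 held the call in all settings run. The 9 that lost it in at least 1 were 21S_RRNA, AI5_BETA, COX2, COX3, Q0010, Q0297, SCEI, YAT1 and YER067C-A, with adjusted p of up to 0.11 in those settings.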

How the results depend on the processing

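The count of 3082 genes called stayed within 1.5 times under each of the 15 alternatives: 3143 with DESeq2, 2993 with upper-quartile factors, 3001 with a filter of 5 CPM, 3680 with the 6 compared libraries alone, 2575 with the 12 MC tagged libraries alone, and 2601 to 2745 with a library left out. With the replicate block 3104 genes were called, and 207 and 1074 differed from the DASGIP tagged and MC untagged responses. The numbers share no stated source, so this pairing is a number only. The 6 called rows with Q0 IDs became 3 with the filter of 5 CPM, which tests fewer rows. The 177 differences from the DASGIP tagged set became 300 with DESeq2 and 76 to 120 with a library left out, and the 1033 from the MC untagged set 606 to 842, where fewer samples enter. The cause of the DESeq2 count was not tested. Of 2910 values for 195 genes, 2840 kept their direction and side of the threshold, 45 lost and 6 gained a call, and 19 changed sign. All 19 were of mitochondrial rows not called and near 0. Under upper-quartile factors COB came to -0.00541 and BI4 to -0.0149, and under scaling by nuclear reading frames BI2 to 0.00374 and BI3 to 0.0318. With libraries left out AI5_BETA ran from -0.263 to 0.00481, COB from -0.0736 to 0.253, BI2 from -0.169 to 0.224, BI3 from -0.137 to 0.242, BI4 from -0.0839 to 0.254, COX2 from -0.00255 to 0.209 and COX3 from -0.143 to 0.0314. The cause of these changes was not tested. The difference in the share of the rows with Q0 IDs ran from -0.58 to 3.64 percentage points. At this depth 1 CPM is between 16.3 and 20.2 counts in the 6 compared libraries, by their TMM-scaled sizes, which limits the rows at low levels.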
